A study of Mus musculus with 12 samples.

Results

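Elf5, Ehf, Elf3, Gata3, Kit, Aldh1a3, Cd14, Tspan8, Itga2 and Itgb3 are grouped here as genes linked to, though not all specific to, the mammary luminal progenitor, the epithelial cell from which milk-secreting alveoli form in pregnancy. They were followed through every probe set (a set of short probes that reports 1 signal) whose platform annotation names that single symbol. This gave 22 probe sets for the 10 genes, of 45037 probe sets other than controls. Signals are log2 values on Affymetrix arrays of mammary tissue from 12 mice, 3 of each of 4 genotypes, taken 6 days after a mating plug. Each Stat5a-/- mouse had 0 Stat5a and 2 Stat5b alleles, and each Stat5ab+/null mouse had 1 of each. Mice labelled Stat5abnull/Stat5b- kept 1 Stat5a allele and no intact Stat5b (called single-Stat5a), and mice labelled Stat5abnull/Stat5a- kept 1 Stat5b allele and no intact Stat5a (called single-Stat5b). All were on a background of C57BL/6, FVB and 129, and every group carries a Stat5 deletion, with no wild type analysed here. The labels describe the deletions as those of the animal and name no mammary-specific Cre. They also mention PolyIC activation of an Mx1-Cre transgene and sorted cells, and whether either applies to these samples is not settled by them.

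In the mammary gland the luminal layer holds hormone-sensing cells and progenitors of the secretory lineage. Prolactin acts through the kinase Jak2 on the transcription factors Stat5a and Stat5b, and the ETS-family factor Elf5 takes part in the same step, the commitment of progenitors to alveolar fate. Surface proteins such as Kit, CD14, CD49b (Itga2) and CD61 (Itgb3) are used to isolate progenitors from the gland.

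The arrays fell into 2 sets, with Stat5a-/- and Stat5ab+/null (2 intact alleles) in one and both single-allele genotypes in the other, and across probe sets Pearson r between arrays of different sets was 0.818 to 0.883. For actin, a control for RNA and labelling quality, the 3' signal less the 5' signal was 0.13 to 0.27 in the 2-allele set and 2.16 to 3.78 in the 1-allele set. Allele total and array set cannot be told apart, so differences between genotypes were tested within a set. The interaction test compares these differences between the sets and keeps that limit. Precision is limited by the number of arrays (3 per genotype), and since the labels do not say how independent the mice are, p-values measure the spread between these samples. Stat5a signal did not follow the labels in the 2-allele set, at 10.30 in Stat5a-/- and 9.91 in Stat5ab+/null for the probe set with the higher signal and 8.94 and 8.37 for the other. Stat5b ran against them too, at 9.59 in Stat5a-/- and 9.90 in Stat5ab+/null without overlap on its leading probe set and 8.27 and 8.52 on the other. None of these 4 differences passed in limma, and the arrays are called by their label in every comparison of this set. Letters in the titles of these arrays, if they count alleles, give other allele totals than the genotype field does. Luminal epithelial markers were well represented, with array means of the list between 10.4 and 11.5, as were fat cell markers (11.4 to 13.3). B cell markers ranged from 6.87 to 12.05 and skeletal muscle markers from 6.10 to 13.44 between arrays, so that tissue makeup differed between mice of 1 genotype. In whole tissue, fewer cells of a type and less RNA per cell cannot be told apart.

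Each gene's account is led by the probe set of highest mean signal, and levels of different probe sets are not compared. Of the 22 probe sets, 21 passed the filter on low signal (a mean of at least log2 6.04, the 30th percentile), with 1 or more for each of the 10 genes. The Ehf probe set 1447760_x_at, at 4.35 to 5.79 on all arrays, was left out of the tests.

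**Figure D1:**
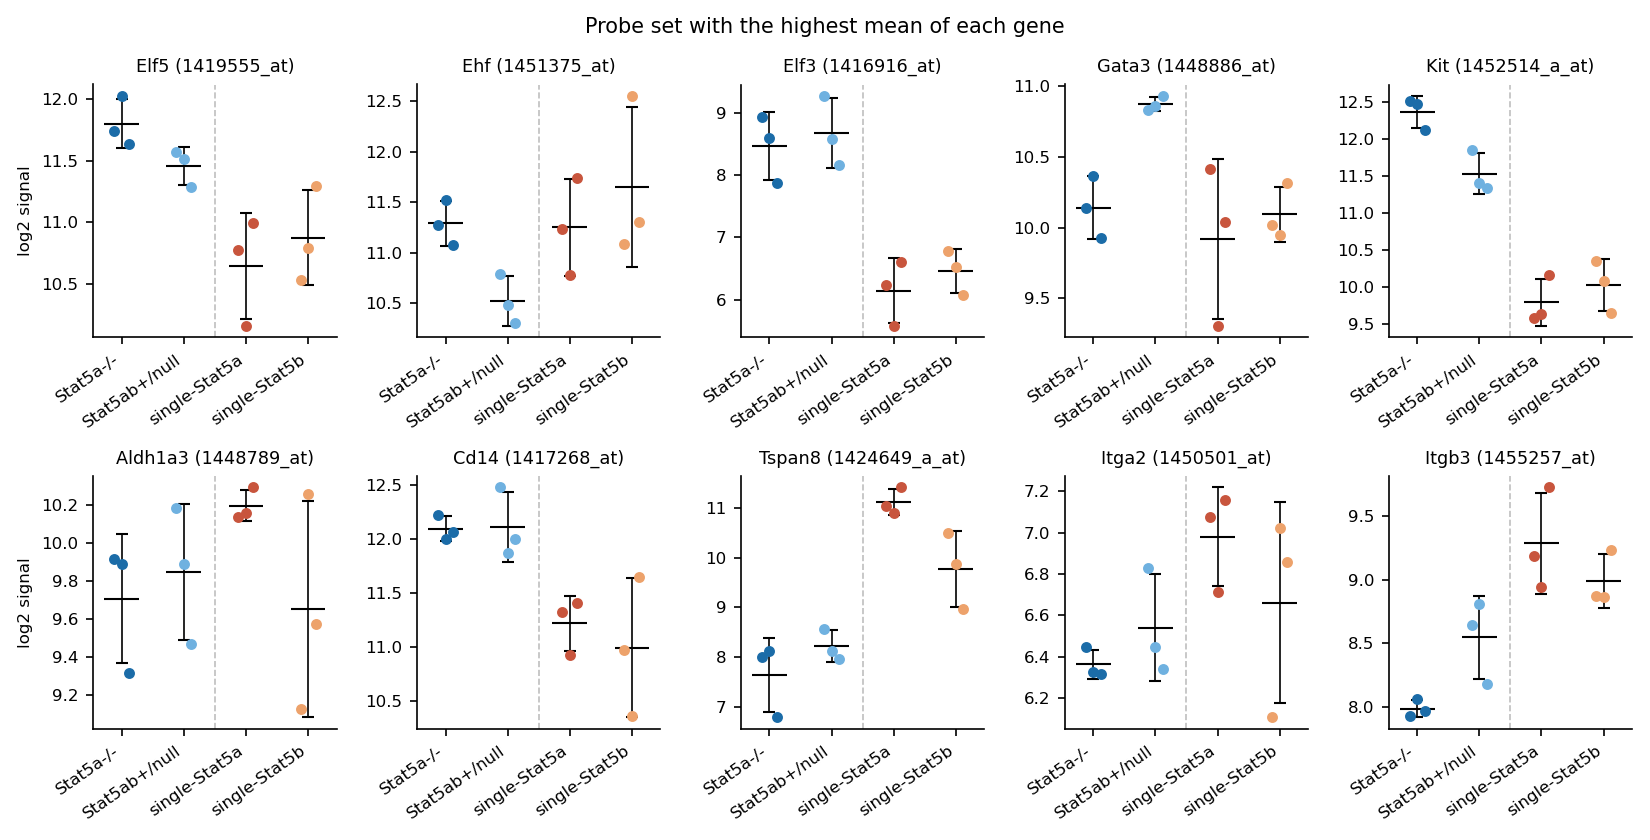
Log2 signal (vertical axis, a separate scale in each panel) of the leading probe set of each gene in the 4 genotypes, 1 point per mouse, with bars for the mean and whiskers for the SD (n = 3). The dashed line parts the 2-allele arrays from the 1-allele arrays. Kit lay at 11.33 to 12.51 left of the line and 9.58 to 10.35 right of it, and Tspan8 at 6.78 to 8.57 against 8.96 to 11.41.

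Elf5, the ETS factor that specifies alveolar cells, gave the largest difference of the members between genotypes of 1 array set, and in 1 of its probe sets alone. Probe set 1419556_at read 5.93, 4.98 and 5.37 in the single-Stat5a mice and 8.59, 8.90 and 10.26 in the single-Stat5b mice. Every single-Stat5b mouse lay above every single-Stat5a mouse, and above the single-Stat5a mice too lay the Stat5a-/- mice (9.35, 9.76 and 9.28) and the Stat5ab+/null mice (8.97, 8.54 and 9.08). The signal was 3.82 higher on the log2 scale in single-Stat5b than in single-Stat5a (SE 0.38, 95% interval 3.01 to 4.63, 14.1-fold; limma adjusted p = 4.34e-05 over all probe sets). The single-Stat5a mean of 5.43 ± 0.48 (SD, n = 3) is under the filter level, and if it is background the fold is a lower bound. Background was not measured.

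The leading Elf5 probe set, 1419555_at, did not show this. It read 10.78, 10.16 and 10.99 in single-Stat5a and 10.53, 10.80 and 11.29 in single-Stat5b, and the groups overlapped. The difference was 0.23 (SE 0.25, interval -0.30 to 0.76, limma adjusted p = 0.821), so an increase in single-Stat5b of more than 0.76 lies outside the interval of this probe set. Within an array, the leading signal minus the other was 2.34 ± 0.07 in Stat5a-/-, 2.60 ± 0.39 in Stat5ab+/null, 1.63 ± 0.51 in single-Stat5b and, widest, 5.22 ± 0.39 in single-Stat5a (SD, n = 3). The 2 probe sets thus changed unequally in single-Stat5a relative to the other genotypes. A gap of this size between the probe sets of 1 gene was uncommon: of 11989 probe sets set beside the leading one of their gene in this comparison, 20 (0.167%) differed from it by at least 3.59 on the log2 scale, against a median of 0.21.

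**Figure D2:**
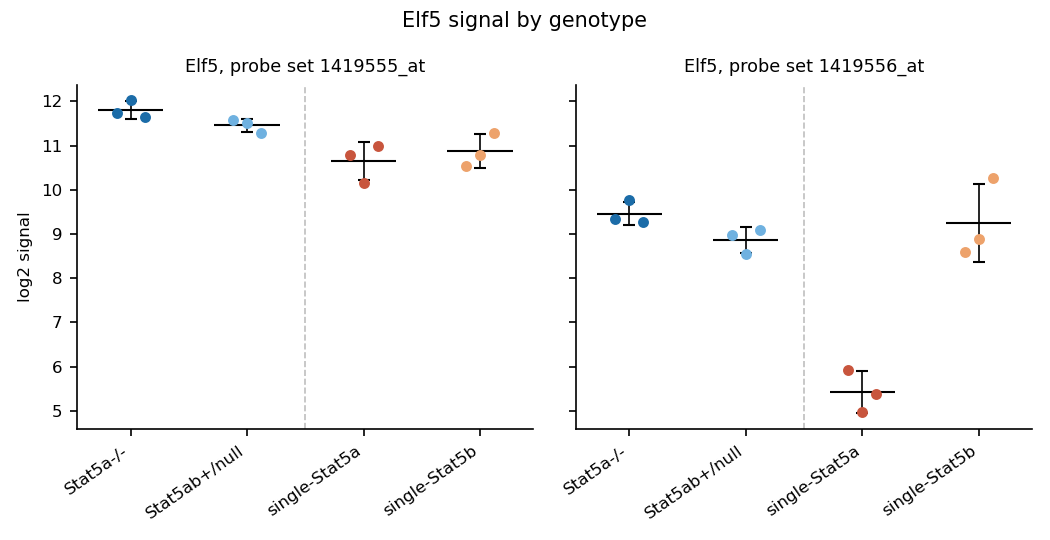
Log2 signal (vertical axis) of the Elf5 probe sets 1419555_at (left) and 1419556_at (right) in the 4 genotypes, 1 point per mouse, with bars for the mean and whiskers for the SD (n = 3). On the right the single-Stat5a mice lie at 4.98 to 5.93 and the other genotypes at 8.54 to 10.26, while on the left single-Stat5a and single-Stat5b overlap.

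RefSeq (GRCm38.p6) lists 2 start sites for Elf5, 11970 bases apart on chromosome 2, and the sources used here do not say which transcript each probe set reports. The windows around both starts, 250 bases before and 50 from the start on (in capitals), are shown because the gene's probe sets differed. The upstream window is chr2:103411848-103412147 and the downstream one chr2:103423818-103424117, both on the plus strand.
Elf5 upstream start: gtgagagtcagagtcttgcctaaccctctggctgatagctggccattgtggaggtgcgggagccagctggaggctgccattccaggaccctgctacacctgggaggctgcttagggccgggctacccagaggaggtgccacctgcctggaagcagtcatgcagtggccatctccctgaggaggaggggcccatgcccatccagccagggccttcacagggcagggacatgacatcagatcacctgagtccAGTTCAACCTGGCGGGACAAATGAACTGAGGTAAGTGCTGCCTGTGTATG
Elf5 downstream start: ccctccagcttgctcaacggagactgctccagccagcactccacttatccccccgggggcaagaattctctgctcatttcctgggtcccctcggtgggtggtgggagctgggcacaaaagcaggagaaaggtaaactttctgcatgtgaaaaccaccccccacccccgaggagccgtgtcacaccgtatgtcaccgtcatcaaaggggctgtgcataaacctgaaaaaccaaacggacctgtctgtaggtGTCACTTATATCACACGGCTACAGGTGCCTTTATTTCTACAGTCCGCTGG
The letters TTCNNNGAA, the pattern of the site that STAT5 binds, read the same on both strands and were in neither window. They were in 0 of the 8 windows that the table holds for 6 of the 10 members (Elf5, Elf3, Gata3, Kit, Tspan8 and Itga2), and in 8.3% of all 32851 windows of 300 bases. A window without them says nothing of sites elsewhere in a gene. In gene order on chromosome 2, Ehf and Elf5 are next to each other.

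The interaction, the single-Stat5b minus single-Stat5a difference less the Stat5a-/- minus Stat5ab+/null difference, was 3.22 for Elf5 1419556_at (SE 0.53, limma adjusted p = 0.00756). The same probe set differed by 0.60 (SE 0.38, adjusted p = 1.00) between Stat5a-/- and Stat5ab+/null. Among all tested probe sets, 1.09% passed the interaction test (0.422% with a positive interaction), and of the 21 tested member probe sets this was the 1 that passed. An offset shared by an array set cancels in the interaction. A probe set response that differs between the sets does not cancel, and it cannot be told apart from allele total. Luminal epithelium markers were, as a list, also higher in single-Stat5b (12 of 13 above 0, median 0.33, array means 10.7 to 11.3 against 10.4 to 10.9), none of them past the test. With that list's mean as a covariate the Elf5 difference was 3.32 (adjusted p = 0.000524) and the interaction 2.46, no longer called (adjusted p = 0.089). The interaction call also ended with 4 arrays left out (3.24, limma adjusted p = 0.112). Stat5ab+/null 2 and Stat5a-/- 3 were left out with B cell list means of 12.05 and 11.5, and single-Stat5a 2 with a muscle list mean of 13.4. The remaining one, single-Stat5b 2, was not high in either list (B cell 7.17, muscle 8.36).

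Ehf and Elf3, related ETS factors of epithelial cells, did not differ past the test in either comparison. The leading Ehf probe set read 11.27, 11.52 and 11.07 in the Stat5a-/- mice, 10.78, 10.48 and 10.30 in Stat5ab+/null, 11.23, 10.78 and 11.74 in single-Stat5a and 11.09, 12.55 and 11.30 in single-Stat5b. The 2-allele groups did not overlap, at a difference of 0.77 (SE 0.35, interval 0.02 to 1.52, limma adjusted p = 1.00), and the 1-allele groups did, at 0.40 (SE 0.35, interval -0.35 to 1.15). The other tested Ehf probe sets gave 0.85 and 0.26 in the first comparison and 0.35 and 0.41 in the second. Elf3 read 8.94, 8.59 and 7.87 in Stat5a-/-, 9.27, 8.58 and 8.16 in Stat5ab+/null, 6.24, 5.58 and 6.61 in single-Stat5a and 6.78, 6.52 and 6.08 in single-Stat5b. Its groups overlapped within each set, with differences of -0.20 (SE 0.35) and 0.32 (SE 0.35). The 1-allele values of Elf3 lie near the filter level, with 5.58 under it. Of the 6 tested probe sets of Elf5, Ehf and Elf3, 5 were above 0 between Stat5a-/- and Stat5ab+/null and 6 between single-Stat5b and single-Stat5a. Across all 31526 tested probe sets 12159 and 15703 were above 0, with medians of -0.05 and -0.00. In the second comparison 12 of 13 luminal epithelium markers were above 0 as well, and with that list's mean as a covariate the leading Elf5 probe set gave -0.08 and Elf3 -0.04. The rest stayed above 0 with that covariate, Elf5 1419556_at at 3.32 and the Ehf probe sets at 0.50 (leading), 0.01 and 0.05.

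Gata3, the zinc-finger factor needed for luminal fate, read 10.14, 10.36 and 9.92 in the arrays labelled Stat5a-/- and 10.83, 10.86 and 10.93 in Stat5ab+/null. The groups did not overlap and the Stat5ab+/null mice lay close together, but the difference of -0.73 (SE 0.25, interval -1.27 to -0.20) did not pass over all probe sets (limma adjusted p = 1.00). Single-Stat5a read 10.41, 9.31 and 10.04 and single-Stat5b 10.02, 9.95 and 10.31. These overlapped, with a difference of 0.17 (SE 0.25). T cells also express Gata3, and the 5 measured T cell markers (Cd3e, Cd2, Cd3d, Cd3g and Themis) had a median difference of -0.80 between Stat5a-/- and Stat5ab+/null, 1 of 5 above 0, with array means of 6.37 to 7.87 against 6.42 to 9.12. The luminal layer also holds hormone-sensing cells, and 4 of their 9 measured markers were above 0 in this comparison. Their median was -0.25, with array means of 9.86 to 10.12 in Stat5a-/- against 10.13 to 10.39 in Stat5ab+/null. The part of T cells and of hormone-sensing cells in the Gata3 signal was not tested.

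Kit, the receptor for stem cell factor and a surface marker of the progenitors, read 12.51, 12.47 and 12.12 in Stat5a-/- and 11.85, 11.41 and 11.33 in Stat5ab+/null. Each Stat5a-/- mouse lay above each Stat5ab+/null mouse, with a difference of 0.83 (SE 0.24, interval 0.32 to 1.34, 1.78-fold) that was not called (limma adjusted p = 1.00). The second Kit probe set gave 0.40 (SE 0.29), with overlap. Single-Stat5a read 9.58, 9.64 and 10.16 and single-Stat5b 10.35, 10.09 and 9.65 on the leading probe set. These groups overlapped at a difference of 0.23 (interval -0.28 to 0.74), and the second probe set gave 0.03 (interval -0.59 to 0.65). Mast cells also carry Kit. Of 8 measured mast cell markers, among them Cpa3, Cma1, Mcpt4 and Tpsb2, 1 was above 0 between Stat5a-/- and Stat5ab+/null (median -0.06, array means 9.76 to 10.06 against 9.70 to 10.14). Between single-Stat5b and single-Stat5a 5 of 8 were above 0 (median 0.20, array means 9.34 to 9.86 against 9.12 to 9.51). Their part in the Kit signal was not tested. Kitl, the gene of the Kit ligand, differed by 0.04 and 0.37 in the 2 comparisons.

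Aldh1a3, a retinaldehyde dehydrogenase that makes retinoic acid, was lower in single-Stat5b on 1 of its 3 probe sets. Probe set 1427395_a_at read 7.63, 7.79 and 8.07 in single-Stat5a and 6.63, 6.17 and 6.65 in single-Stat5b, with no overlap. It fell by 1.35 on the log2 scale (SE 0.19, interval -1.76 to -0.93, 2.54-fold, limma adjusted p = 0.00107). The single-Stat5b mean of 6.48 lies near the filter level. The same probe set read 7.44, 7.55 and 7.19 in Stat5a-/- and 8.11, 8.06 and 7.91 in Stat5ab+/null, again without overlap, at a difference of -0.63 (SE 0.19) that did not pass (adjusted p = 1.00). The interaction was -0.72 (SE 0.27, adjusted p = 0.458), so a larger difference in the 1-allele set was not shown. Markers of other cell types also differed between single-Stat5b and single-Stat5a. Of 9 hormone-sensing luminal markers 7 were above 0 (median 0.54, array means 10.3 to 10.4 against 9.54 to 10.1). Of 8 endothelial markers 1 was above 0 (median -0.45, array means 9.14 to 9.52 against 9.63 to 9.86). No gene of these lists passed. All 9 muscle markers were below 0 (median -2.46, array means 7.67 to 10.6 against 9.57 to 13.4), as were 7 of 8 fat cell markers (median -0.58, array means 11.4 to 12.2 against 12.3 to 12.5). Of 5 skin keratinocyte markers 3 were above 0 (median 0.19, array means 7.83 to 8.06 against 8.08 to 8.45), Krtdap fell by 1.75 (limma adjusted p = 0.0228) and Sbsn was at -1.19. With B cell and muscle list means as covariates the Aldh1a3 difference was -1.38 (adjusted p = 0.0122). The part of hormone-sensing, endothelial, skin and fat cells in it was not tested.

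The leading Aldh1a3 probe set, 1448789_at, read 10.14, 10.16 and 10.29 in single-Stat5a and 9.13, 10.26 and 9.58 in single-Stat5b. The groups overlapped through single-Stat5b 2, at a difference of -0.54 (SE 0.28, interval -1.15 to 0.06, limma adjusted p = 0.506). The third probe set gave -0.17 (SE 0.22). Between Stat5a-/- and Stat5ab+/null these 2 differed by -0.14 and -0.02.

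Of 13 measured genes of retinoic acid handling on a list with Aldh1a3 left out, 1 rose and 1 fell between single-Stat5b and single-Stat5a, with 5 of 13 above 0 and a median of -0.07. Between Stat5a-/- and Stat5ab+/null 0 of 13 passed (also 0 at an unadjusted p under 0.05), with Crabp2 at 0.51 and Rara, a retinoic acid receptor, at -0.41. Aldh1a2, another retinaldehyde dehydrogenase, read 7.21, 7.77 and 6.99 in single-Stat5a and 5.12, 4.62 and 6.27 in single-Stat5b, and fell by 1.99 (SE 0.35, limma adjusted p = 0.00563). The single-Stat5b mean of 5.34 is under the filter level. Its call was lost with the 4 arrays left out (-1.40, adjusted p = 0.118) and with B cell and muscle list means as covariates (-1.50, adjusted p = 0.0679). Crabp2, a carrier protein of retinoic acid, read 8.74, 8.24 and 8.74 in single-Stat5a and 9.60, 9.34 and 10.31 in single-Stat5b, and rose by 1.18 (SE 0.27, adjusted p = 0.0337). It passed in 12 of 25 alternative settings and was lost without any one of Stat5a-/- 3, Stat5ab+/null 1, single-Stat5a 1, 2 and 3 and single-Stat5b 1 and 3 (0.90 to 1.26, adjusted p 0.0515 to 0.148).

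Among the surface proteins, Cd14, a co-receptor for bacterial lipopolysaccharide, read 12.22, 12.00 and 12.06 in Stat5a-/-, 12.48, 11.87 and 12.00 in Stat5ab+/null, 11.32, 10.93 and 11.40 in single-Stat5a and 10.97, 10.36 and 11.64 in single-Stat5b. Its groups overlapped within each set, with differences of -0.02 (interval -0.63 to 0.60) and -0.23 (interval -0.84 to 0.39). Macrophages also express Cd14, and array means of the 10 macrophage markers were 11.3 to 11.7 in both 2-allele groups, 11.8 to 12.0 in single-Stat5a and 11.5 to 12.3 in single-Stat5b. Itga2, the alpha-2 chain of a collagen-binding integrin, read 6.45, 6.33 and 6.32 in Stat5a-/-, 6.83, 6.45 and 6.34 in Stat5ab+/null, 7.08, 6.71 and 7.16 in single-Stat5a and 6.11, 7.02 and 6.86 in single-Stat5b. These values lie near the filter level, and both differences (-0.18 and -0.32) were within the spread.

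Itgb3, the beta-3 integrin chain, read 7.93, 8.06 and 7.97 in Stat5a-/- and 8.65, 8.81 and 8.18 in Stat5ab+/null on its leading probe set. All Stat5a-/- mice lay below, at a difference of -0.56 (SE 0.23, interval -1.05 to -0.06) that was not called (limma adjusted p = 1.00), and the other probe set gave -0.11. Single-Stat5a (9.19, 8.94 and 9.72) and single-Stat5b (8.87, 8.86 and 9.23) overlapped, at -0.30 (SE 0.23). Itgb3 is also made by platelets and endothelial cells. Between Stat5a-/- and Stat5ab+/null the 4 measured platelet markers had a median of -0.10 (array means 8.45 to 8.55 against 8.51 to 8.59) and the 8 endothelial ones -0.17 (9.60 to 10.00 against 9.96 to 10.12), and their part was not tested.

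Tspan8, a tetraspanin of the cell surface, was lower in single-Stat5b than in single-Stat5a on all 5 of its probe sets, without passing the test. The leading one read 11.04, 10.90 and 11.41 in single-Stat5a and 10.50, 9.87 and 8.96 in single-Stat5b, at a difference of -1.34 (SE 0.40, interval -2.20 to -0.49, limma adjusted p = 0.115). The other 4 gave -1.66, -1.26, -1.03 and -0.76, with adjusted p of 0.152 to 0.428. In 2 of the 5 the groups did not overlap. Single-Stat5b 3 was the lowest of its group on 5 of 5 probe sets, and without it the differences were -0.94 for the leading probe set and -0.78 (adjusted p = 0.0400), -0.62, -0.29 and -0.40 for the others in the same order. With B cell and muscle list means as covariates 4 of the 5 passed (-2.03 to -1.31, adjusted p 0.0148 to 0.0204). With the actin control as a covariate 3 passed, and the leading probe set passed without single-Stat5b 1 as well (-1.70, adjusted p = 0.0495).

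Over the members as a set, limma called 0 of 21 tested probe sets between Stat5a-/- and Stat5ab+/null, where 0.00952% of all tested probe sets were called, and 5 had an unadjusted p under 0.05 (23.8%, against 2.84% of all). Groups did not overlap for 8 of the 21 (38.1%, against 17.5% of all). Both Elf5 probe sets, 2 of Ehf and 1 of Kit lay higher in Stat5a-/- (5 of 21, against 6.17% of all), and 1 each of Gata3, Aldh1a3 and Itgb3 lay lower (3 of 21, against 11.3% of all). With array weights 3 passed, Ehf (0.87, adjusted p = 0.0399), Kit (0.85, adjusted p = 0.0246) and Aldh1a3 1427395_a_at (-0.54, adjusted p = 0.0445), in a fit that called 430 probe sets in all. Between single-Stat5b and single-Stat5a 2 of 21 were called (9.52%), Elf5 1419556_at and Aldh1a3 1427395_a_at, where 2.89% of all were called (1.08% higher and 1.81% lower). Groups did not overlap for 4 of 21 (against 11.5% of all), Elf5 1419556_at higher (5.29% of all) and Aldh1a3 1427395_a_at and 2 Tspan8 probe sets lower (6.16% of all). Neither of the 2 called probe sets is the leading one of its gene. Among all genes, 274 of the 322 called probe sets that were not leading (85.1%) likewise had a leading one that was not called. The median difference of the 21 was -0.02 in the 2-allele set and -0.17 in the 1-allele set, against -0.05 and -0.00 over all tested probe sets.

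**Figure D3:**
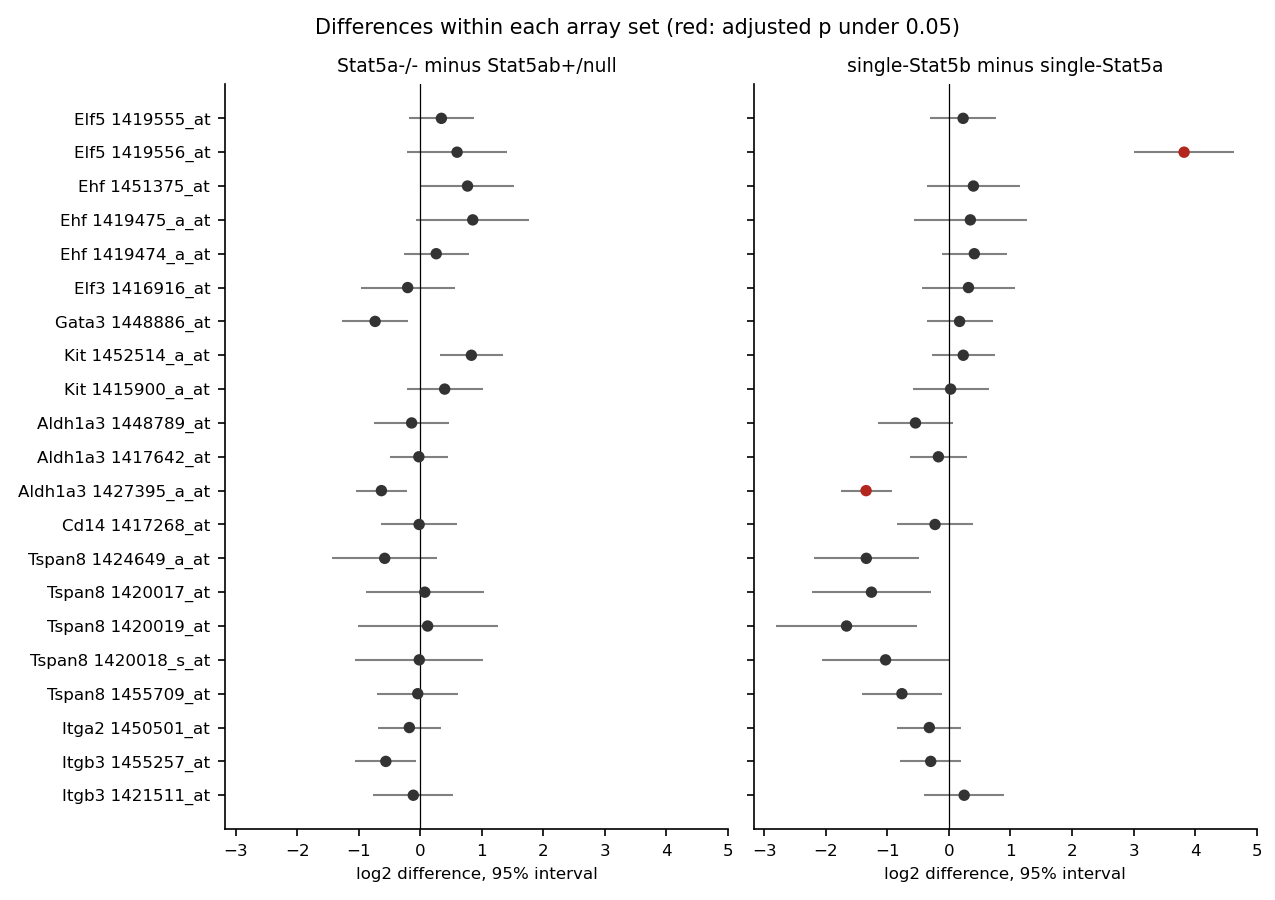
Log2 differences (horizontal axis, with 95% intervals from the limma fit) of the 21 tested member probe sets between Stat5a-/- and Stat5ab+/null (left) and between single-Stat5b and single-Stat5a (right), red where the adjusted p is under 0.05. Elf5 1419556_at at 3.82 and Aldh1a3 1427395_a_at at -1.35 are the red points, both on the right, and the 5 Tspan8 probe sets lie left of 0 there.

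Levels across the array sets are given as a description, since the set carries more than the allele number. Among all tested probe sets, 38.9% differed between the sets by at least 1 on the log2 scale with no overlap of the 6 and 6 arrays. Of the 21 member probe sets 11 did (52.4%), 6 higher (21.1% of all) and 5 lower (17.8% of all) in the 1-allele arrays. Tspan8 alone gave 5 of the 6 higher ones. Of the 10 leading probe sets 3 differed in this way, 1 higher and 2 lower. For 1-allele minus 2-allele arrays the 2 Kit probe sets gave -2.04 and -2.08 and Elf3 -2.27, with every 1-allele array below every 2-allele array. Cd14 came just short of that size, also with no overlap. Tspan8 was higher on all 5 probe sets, by 2.09 to 5.69, and 3 of these passed the filter only through the 1-allele arrays, with 2-allele group means of 4.27 to 5.76. The leading Tspan8 probe set, with 2-allele means of 7.64 and 8.22, gave 2.52. Probe sets of 1 gene did not always run the same way: Ehf gave 0.55, -2.47 and 1.29. Over all genes, the median gap between a leading and another probe set in this difference was 1.20.

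The order of the 4 genotypes followed from this. Kit and the Ehf probe set 1419475_a_at were highest in Stat5a-/-, then Stat5ab+/null, then single-Stat5b and single-Stat5a, with the last 2 overlapping. Itgb3 and Tspan8 on their leading probe sets ran the other way round, with single-Stat5a first and Stat5a-/- last. For Itgb3 the 1-allele groups overlapped and the 2-allele groups did not, and for Tspan8 it was the reverse. Gata3 was highest in Stat5ab+/null, and the other 3 genotypes overlapped. For Itga2 and the leading Ehf and Aldh1a3 probe sets, each genotype overlapped with the next in the order.

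**Figure D4:**
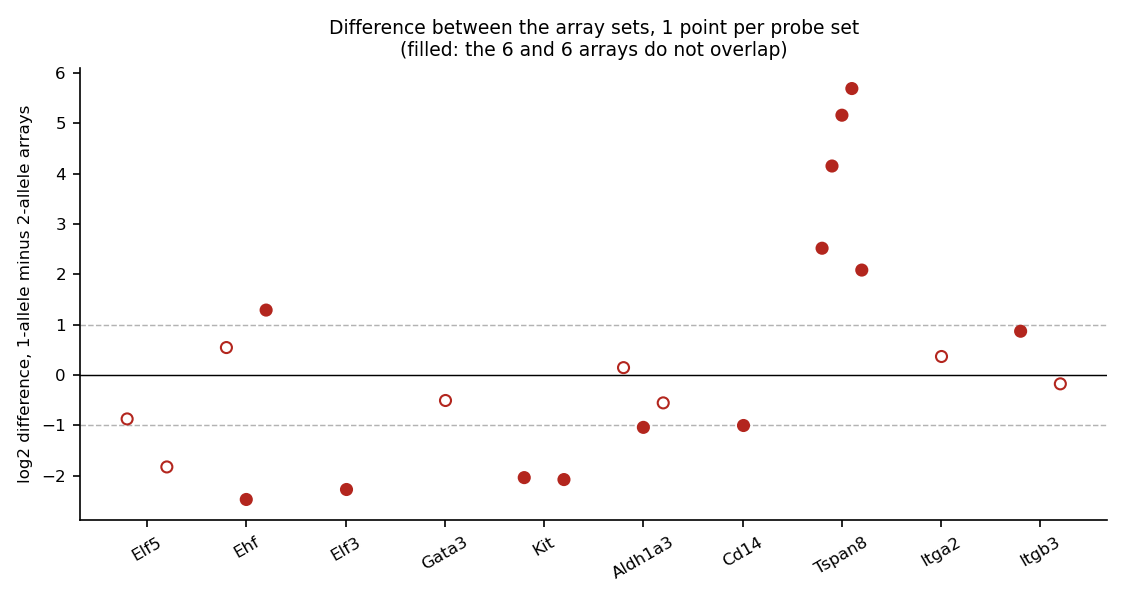
Log2 difference between the means of the 6 single-allele arrays and the 6 arrays with 2 alleles (vertical axis), 1 point per tested probe set of each gene, filled where the arrays of the sets do not overlap. The dashed lines mark 1 and -1. The Tspan8 points lie at 2.09 to 5.69, Kit at -2.08 and -2.04, and the 3 Ehf points on both sides of 0.

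Differences between mice of 1 genotype ran through several members together. Stat5a-/- 3 was the lowest of its group for 8 of the 10 leading probe sets, as were Stat5ab+/null 3 and single-Stat5a 2, while in single-Stat5b the lowest mouse was spread over the 3. How often each array was lowest over all probe sets was not counted, so this is not shown to be particular to the members. Stat5a-/- 3 had a B cell list mean of 11.5 (against 6.89 and 6.92 in the other two) and single-Stat5a 2 a muscle list mean of 13.4. Their part in the member signals was not tested. With the mean of each array set subtracted, the 45 pairs of leading probe sets had Pearson r from -0.51 to 0.82 over the 12 arrays, with 34 above 0 and a median of 0.28. Aldh1a3 with Itga2 (0.82), Ehf with Kit (0.66) and Elf5 with Ehf (0.59) were the closest pairs. On the same measure, the genes outside the members most like Elf5 were Aldoc (0.92), 4930415O20Rik (0.91) and Pbx2 (0.89), those most like Ehf were Id4 (0.93), Brwd3 (0.91) and Ccar1 (0.91), and those most like Kit were Zfp931 (0.94), Ralb (0.93) and Chmp2b (0.90). These points share tissue makeup and array quality.

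Other genes of these pathways mostly did not pass, and their list medians stand beside -0.05 and -0.00 over all tested probe sets. The list counts take only the leading probe set of each gene. Of 18 measured luminal progenitor genes outside the members, 0 passed in either comparison, with 13 of 18 above 0 (median 0.14) between Stat5a-/- and Stat5ab+/null and 10 of 18 (median 0.04) between single-Stat5b and single-Stat5a. The largest differences were those of the casein gene Csn3 (0.80) and the factor Cebpb (-0.48) in the first and of the chemokine Cxcl1 (-0.86) and lactoferrin, Ltf (-0.78), in the second. Of 14 partners and ligands of the members 0 passed on the leading probe set, with 8 and 7 of 14 above 0 (medians 0.02 and -0.04). Another probe set of Src (1.38, limma adjusted p = 0.000533) and of Tlr4 (-0.88, limma adjusted p = 0.0198) did pass in the second comparison. That of Src had means of 4.35 in single-Stat5a and 5.73 in single-Stat5b, under the filter level. Named by size were Itgav, the integrin chain that pairs with beta-3, at 0.72 and Zfpm1, a Gata cofactor, at -0.61 in the first comparison, and Src at 0.54 and Lbp at -0.51 in the second. Of 16 Notch pathway genes 0 passed, with 5 of 16 above 0 in each comparison (medians -0.15 and -0.07), Notch1 at -0.39 and Notch4 at -0.37 in the first and Dll4 at -0.54 and Notch4 at -0.46 in the second. Of 16 other ETS factors 0 passed on the leading probe set, with 5 and 10 of 16 above 0 (medians -0.10 and 0.08). Spi1 was at -0.61 and Fli1 at 0.43 in the first comparison, and Gabpa at 0.36 and Elf4 at -0.33 in the second. Another probe set of Ets1 (2.09, limma adjusted p = 0.0021) and of Elk3 (1.80, limma adjusted p = 0.0014) did pass in the second. Of 12 prolactin signal genes 1 fell, in single-Stat5b against single-Stat5a, and this was Stat5a itself (-1.23, limma adjusted p = 0.00251), which the genotype targets. The other Stat5a probe set gave -0.24 (adjusted p = 0.814), at means of 5.29 and 5.05 that are under the filter level. Stat5b, also targeted, gave 0.20 (adjusted p = 0.787) on its leading probe set and 0.64 (adjusted p = 0.0671) on the other, so neither passed. In the first comparison 6 of 12 were above 0 (median -0.06), with the casein gene Csn2 at 1.66 and Socs3, an inhibitor of the pathway, at -0.58. At an unadjusted p under 0.05 in limma, the first and second comparison had 1 and 2 of the 18 progenitor genes, 2 and 0 of the 14 partners, 0 and 0 of the 16 Notch genes and 1 and 0 of the 16 other ETS factors.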

How the data were processed

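Total RNA extracted with Trizol from mammary tissue of 12 mice was hybridised as biotin-labelled cRNA, per the labels. The deposited values are log2 signals per probe set made by the authors. RMA and Partek appear in the submitters' processing notes without version or settings. Medians of the arrays differed (7.28 to 7.50), and whether arrays were normalized to each other is not stated. The platform annotation gave 34945 probe sets with 1 gene symbol, 932 with several and 9160 with none, 64 controls aside. The 31526 probe sets with a mean at or above the 30th percentile entered 1 limma fit (limma 3.58.1, R 4.3.3), with 1 mean per genotype, 1 spread over 12 arrays and 2-sided moderated tests. P-values were adjusted by Benjamini-Hochberg over all of them, with a call under 0.05. The lowest Pearson r between arrays of a set was 0.980 in the 2-allele set and 0.948 in the 1-allele set. The shared spread may thus be too wide for the 2-allele set and too narrow for the 1-allele set. An exact permutation test of 3 against 3 cannot go below p = 0.1. The code of the fit was run on simulated data with independent noise and equal spread in all genotypes. That does not bear on the calls in these arrays, where spread and tissue makeup differ. Genes named were all members, the 3 most like Elf5, Ehf and Kit, and per pathway list the called genes (at most 4) or else the 2 largest differences. List counts and means take each gene past the filter by its leading probe set. Members, lists and the arrays left out together were chosen with earlier results of these data known. Promoter windows come from RefSeq. Replicates were numbered in record order.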

Additional observations from a re-analysis of the deposited data

Results flagged for a closer look

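Elf5 probe set 1419556_at changed differently in the 2 array sets, with an interaction of 3.22 (SE 0.53, limma adjusted p = 0.00756): 3.82 between single-Stat5b and single-Stat5a and 0.60 between Stat5a-/- and Stat5ab+/null. The leading Elf5 probe set had an interaction of -0.11 (SE 0.35, adjusted p = 0.997). Allele total and a probe set response particular to 1 array set cannot be told apart in these values.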

How the results depend on the processing

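Over 25 alternative settings, member differences were recomputed 1509 times: 1421 kept their direction and their side of the threshold, 12 came to pass, 2 ceased to pass, and 74 changed sign with no call on either side. No called member difference changed sign. Elf5 1419556_at (3.24 to 4.15, adjusted p 2.74e-05 to 0.00597) and Aldh1a3 1427395_a_at (-1.55 to -1.17, adjusted p 0.000642 to 0.0294) passed in all 24 settings that tested them between single-Stat5b and single-Stat5a. With 1 probe set per gene neither is tested, and 0 members are then called there or in the interaction. Members called in single-Stat5b minus single-Stat5a were 6 with B cell and muscle covariates, 5 with the actin covariate and 2 to 3 with 1 array left out. The interaction had 0 members called with 4 arrays left out or the luminal covariate, and Stat5a-/- minus Stat5ab+/null 3 with array weights.

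Counts over all probe sets moved more. Stat5a-/- minus Stat5ab+/null (3 called) gave 1 with 1 probe set per gene, 430 with array weights, 0 at an adjusted p under 0.01, with 4 arrays left out or with either list covariate, and 0 to 6 with 1 array left out. Single-Stat5b minus single-Stat5a (912) gave 534 with a filter at the 50th percentile, 310 with 1 probe set per gene, 478 in a fit of the groups alone, 540 at 0.01, 592 with B cell and muscle covariates, and 652 to 2017 with 1 array left out (2017 without single-Stat5b 3). The interaction (345) gave 202, 110, 1018 with array weights, 197 at 0.01, 217 with 4 arrays left out, 199 with B cell and muscle covariates, and 233 to 521. Quantile normalization and median centring moved no count between the sets by over 1.5 times. No paired analysis was possible because the labels give no replicate number shared between genotypes. Signals near the filter level limit what can be read for Itga2 and for Elf5 1419556_at in single-Stat5a.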
